A study of Mus musculus with 12 samples.

Results

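Bcl11a, Spi1, Mef2c, Erg, Mycn, Cd44 and Cd34 are 7 of the 19057 genes named on the array, all of them genes of early progenitors, active before a cell commits to the T lineage, and their signal was followed in double-negative thymocytes of 3 genotypes. They were chosen by gene symbol: every probe whose platform annotation named 1 of these 7 genes was taken, which gave 22 of the 45281 probes of the array. Of these, 12 probes were detected on at least 3 of 12 arrays (a detection p-value under 0.05 against the array's negative controls), and they measured 5 of the 7 genes, among 10497 genes measured in all. The 2 probes for Erg and the 1 for Mycn did not reach that minimum and were not tested.

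The arrays held RNA from thymocytes sorted as negative for CD4 and CD8 (double negative, DN), where T-cell development in the thymus begins, taken from C57 BL/6 mice of 2 to 3 months. The knockout group (KO, 3 arrays) carried the NHD13 transgene and lacked Lyl1, the NHD13 group (3 arrays) carried the transgene with Lyl1 in place, and the wild-type group (WT, 6 arrays) carried neither change. NHD13 is the NUP98-HOXD13 fusion, driven in all blood cells by the Vav promoter, and the knockout group therefore differs from NHD13 by Lyl1 and from wild type by both alleles. Total RNA (about 300 ng an array) was hybridised to Illumina MouseWG-6 v2.0 beadchips, which measure a fluorescence signal per probe in 1 colour. Whether replicate arrays of a genotype stem from different mice is not in the labels, so p-values measure the spread between arrays.

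In thymic seeding progenitors and the first DN stages, a set of stem and progenitor factors is still active, and it is switched off as Notch signals turn on Bcl11b and the T programme. Bcl11a is a zinc-finger repressor needed for lymphoid development. Spi1 encodes PU.1, the Ets factor that keeps myeloid and dendritic fates open until commitment. Mef2c is a MADS-box factor that acts with lymphoid progenitor genes. Erg, also an Ets factor, and Mycn, a Myc-family factor, serve stem-cell maintenance and growth. Cd44, the hyaluronan receptor, and Cd34, a sialomucin, are surface proteins by which immature progenitors are recognised.

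Lyl1, a basic helix-loop-helix factor, binds E-boxes (CANNTG), and PU.1 binds a GGAA core, often as GAGGAA. Only GAGGAA was searched for, and other GGAA strings were not counted or marked. Promoter windows of 250 bases before to 50 after each annotated start were taken from a RefSeq table (GRCm38.p6), in which 6 of the 7 genes were matched to 10 windows. Bcl11a and Cd44 are shown because both passed the test in a comparison below when KO replicate 1 was left out, though neither passed with all 12 arrays, and because their windows held different motifs. Each is written 5′ to 3′ on the gene's strand, with the motif letters in capitals.

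Bcl11a (chr11:24080445-24080744, plus strand): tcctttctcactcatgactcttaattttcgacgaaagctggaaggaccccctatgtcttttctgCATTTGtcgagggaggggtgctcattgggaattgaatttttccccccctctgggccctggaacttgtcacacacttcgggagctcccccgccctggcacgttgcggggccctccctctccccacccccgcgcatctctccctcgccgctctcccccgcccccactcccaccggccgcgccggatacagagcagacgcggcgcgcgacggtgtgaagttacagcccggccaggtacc

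Cd44 (chr2:102901616-102901915, minus strand): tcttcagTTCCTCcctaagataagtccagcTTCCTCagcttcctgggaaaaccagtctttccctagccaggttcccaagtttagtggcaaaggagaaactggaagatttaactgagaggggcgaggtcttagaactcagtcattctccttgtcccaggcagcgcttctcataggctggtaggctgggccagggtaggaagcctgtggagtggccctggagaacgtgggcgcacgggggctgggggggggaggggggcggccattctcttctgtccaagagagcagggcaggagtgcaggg

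The Bcl11a window held 1 E-box and no GAGGAA, and the Cd44 window held no E-box and 2 GAGGAA motifs, both on the opposite strand and so printed as TTCCTC. Over 32851 RefSeq windows of 300 bases, 72.3% held an E-box and 28.3% held GAGGAA on either strand, and in these 2 windows no motif overlapped another. The 3 windows of Mef2c held 2, 0 and 1 E-boxes and 1, 1 and 0 GAGGAA motifs, 1 of 3 Erg windows and the Mycn window held 2 E-boxes each, and the Cd34 window held neither an E-box nor GAGGAA. A match is a string of letters and shows no binding.

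Each array detected 17168 to 19464 probes (37.9% to 43% of them) and had a summed signal of 18826428 to 35384740. After normalization, detection started at a log2 signal of 5.22 to 5.51, so values near or below that are background. The targeted gene bore out the labels: Lyl1 had a log2 signal of 4.75, 4.73 and 4.68 on the KO arrays, 11.18, 11.19 and 11.10 on the NHD13 arrays and 6.79 to 7.39 on the WT arrays, and it was not detected on any KO array. KO replicate 1 stood apart from replicates 2 and 3 in the genes described here. Pairs of arrays correlated at 0.897 to 0.969 in the KO group, 0.955 to 0.963 in NHD13 and 0.944 to 0.991 in WT, over the probes kept. The arrays also split by sex-linked transcripts. Xist had a log2 signal of 10.83 to 12.71 and Eif2s3y, a Y-linked gene, 4.5 to 4.89 on KO replicates 1 and 2, all NHD13 arrays and WT replicates 4 to 6, against 4.57 to 4.83 and 9.88 to 10.61 on KO replicate 3 and WT replicates 1 to 3. The tests of the 5 genes are therefore given with and without KO replicate 1, and WT replicates 1 to 3 and 4 to 6 are shown apart where they differ.

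Bcl11a was present on every WT array and low in NHD13 DN thymocytes and in 2 of the 3 KO samples. Its brightest probe had a log2 signal of 10.75, 5.26 and 5.76 on KO replicates 1, 2 and 3, 5.32, 6.45 and 5.18 on NHD13 replicates 1, 2 and 3, and 7.43 to 9.14 (median 8.40) on the WT arrays. All 3 NHD13 arrays and KO replicates 2 and 3 lay below all 6 WT arrays, while KO replicate 1 lay above all of them. The probe was detected on 2 of 3 KO, 1 of 3 NHD13 and 6 of 6 WT arrays, so several of the low values are background. In bulk RNA, fewer cells of a type and less RNA per cell cannot be told apart. A second probe gave the same order, with 10.76, 4.73 and 5.03 in KO, 4.67, 5.70 and 4.80 in NHD13 and 6.60 to 7.95 in WT, and the last of its 3 probes was detected on 0 arrays.

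Spi1 had 1 probe and went the other way in NHD13. Its log2 signal was 9.41, 4.69 and 4.72 in KO, 5.77, 7.70 and 7.27 in NHD13 and 4.76 to 5.93 (median 5.45) in WT. It was detected on all 3 NHD13 arrays, on KO replicate 1 alone of its group and on 3 of 6 WT arrays (replicates 1, 4 and 5). NHD13 replicates 2 and 3 exceeded every WT array, NHD13 replicate 1 lay within the WT range, and KO replicates 2 and 3 lay below all WT arrays in the background.

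Mef2c varied within every group. Its brightest probe had a log2 signal of 10.77, 8.49 and 6.18 in KO, 5.30, 7.29 and 5.72 in NHD13, and 8.09, 8.45, 9.10, 7.07, 7.36 and 6.61 on WT replicates 1 to 6. The 3 groups overlapped. WT replicates 1 to 3 averaged 8.54 ± 0.51 and WT replicates 4 to 6 averaged 7.01 ± 0.38 (SD, n = 3 each), with no overlap. KO replicates 2 and 3 also lay apart, one within the range of WT replicates 1 to 3 and the other below all WT arrays. The next probe showed the same split, with 9.50, 7.27 and 5.19 in KO, 4.68, 6.36 and 4.75 in NHD13 and 4.97 to 7.65 in WT. Another 2, dimmer, probes were detected on KO replicate 1 and WT replicates 1 to 3 only, and the last of the 5 on 0 arrays.

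Cd44 was well above background on all 12 arrays by its 2 brightest probes. The brightest had a log2 signal of 10.93, 8.67 and 9.04 in KO, 9.18, 10.43 and 10.24 in NHD13, and 9.32 to 9.86 (median 9.62) in WT. KO replicates 2 and 3 were below all NHD13 and all WT arrays, whereas NHD13 replicates 2 and 3 were above all WT arrays. By the second probe, with 9.51, 7.11 and 8.26 in KO, 8.35, 9.19 and 8.66 in NHD13 and 7.62 to 8.32 in WT, all 3 NHD13 arrays were above WT and KO replicate 3 lay within the WT range. Of the 7 other Cd44 probes, 2 were detected on 3 arrays each, 1 on WT replicate 3 alone and 4 on 0 arrays.

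Cd34 was at or near background on all arrays but KO replicate 1. Its single probe was detected on 2 of 3 KO arrays (replicates 1 and 3), 1 of 3 NHD13 arrays (replicate 2) and 3 of 6 WT arrays (replicates 2, 4 and 5), and it had a log2 signal of 9.92, 5.17 and 5.52 in KO, 5.06, 5.58 and 5.37 in NHD13 and 4.79 to 5.92 (median 5.36) in WT. KO replicate 1 was far above the others, which overlapped in all 3 groups. Erg was detected on NHD13 replicates 1 and 2 alone (5.50 and 5.71), with 4.77 to 5.16 in KO and 4.53 to 5.34 in WT, all of these within the signal where detection starts or below it. Mycn was detected on 0 of 12 arrays, at 4.48 to 4.92.

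**Figure D1:**
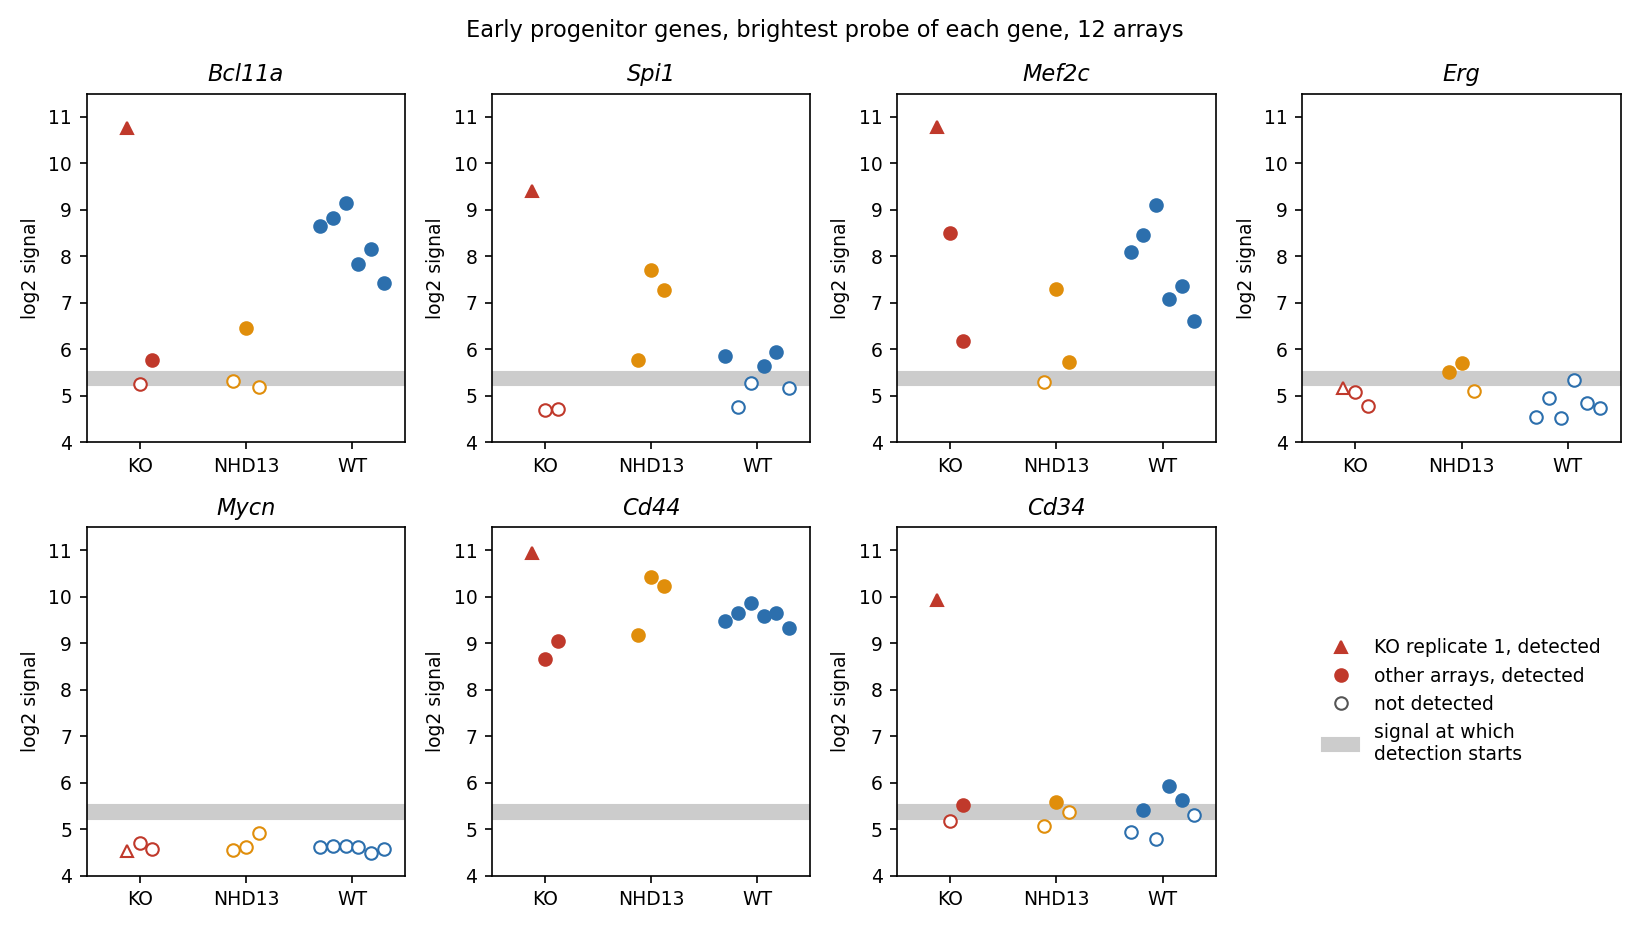
Log2 signal of the brightest probe of each of the 7 genes on 12 arrays, by group (KO, NHD13, WT), with KO replicate 1 as a triangle, undetected values as open symbols and the range in which detection starts (5.22 to 5.51) as a grey band. Bcl11a is at 5.18 to 6.45 in NHD13 and at 7.43 to 9.14 in WT, and KO replicate 1 is the highest array for the 5 measured genes.

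**Figure D2:**
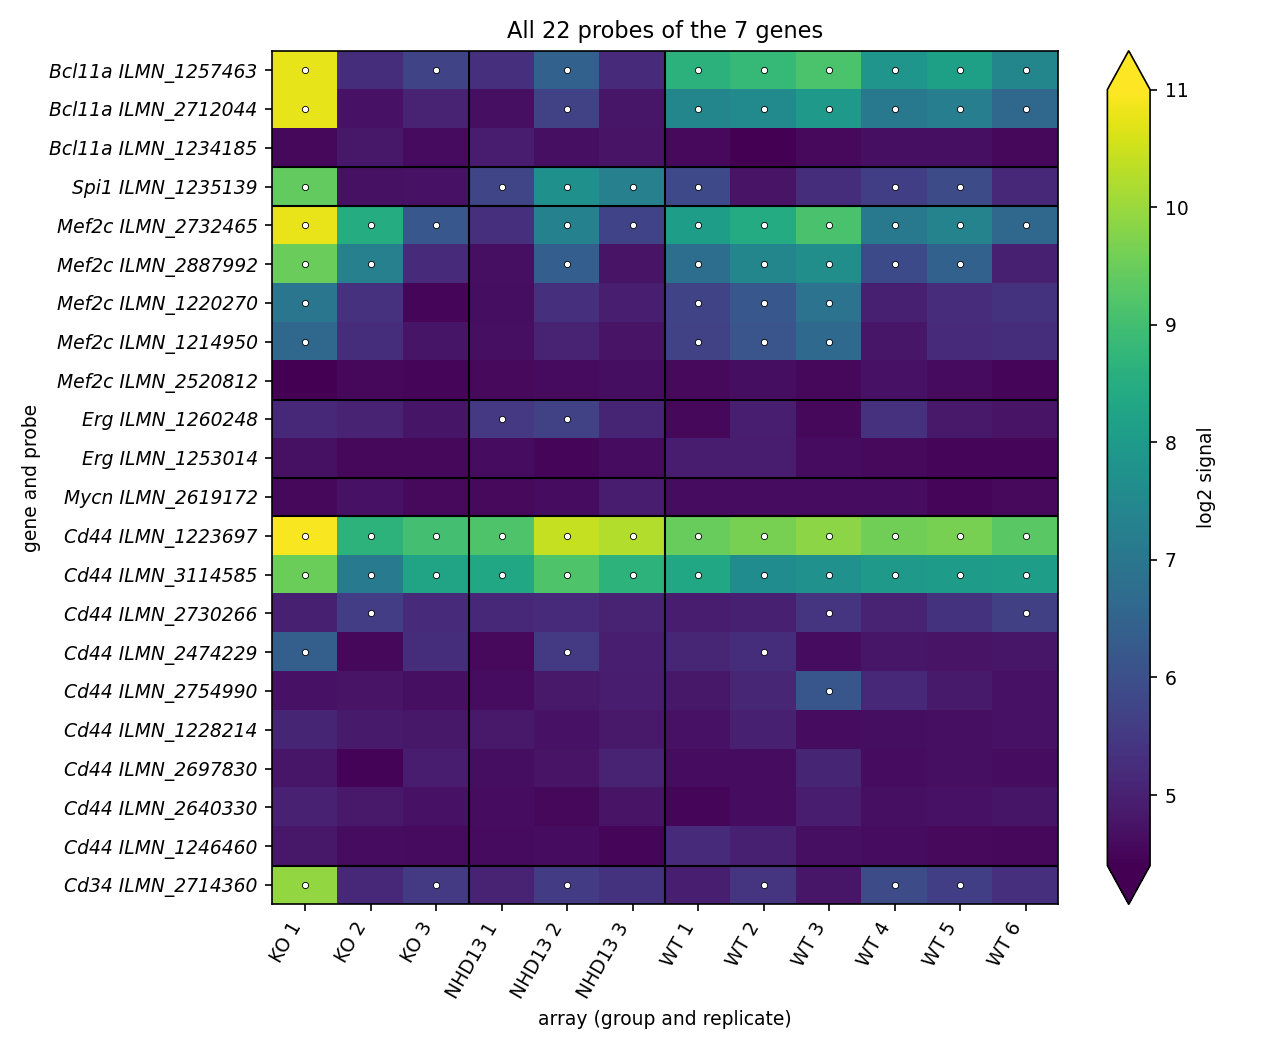
Log2 signal (colour) of all 22 probes of the 7 genes (rows) on each array (columns, KO, NHD13 and WT), with a white dot where the probe was detected. The 12 probes that were kept carry dots on at least 3 arrays, and for Bcl11a, Mef2c and Cd44 the dimmer probes carry few or none.

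NHD13 was first compared with wild type, which asks what the transgene changes in DN thymocytes. In limma's moderated test over all 12 arrays, adjusted by the Benjamini-Hochberg method over all kept probes, 0 of the 5 measured genes passed an adjusted p under 0.05, and 1 (Bcl11a) had an unadjusted p under 0.05. Over all 10497 genes, 24.2% passed (11.6% higher and 12.6% lower). Bcl11a averaged 5.65 ± 0.70 in NHD13 (SD, n = 3) and 8.34 ± 0.65 in WT (n = 6), a log2 change of -2.69 ± 0.95 (SE), with an adjusted p of 0.0646 in limma. All arrays of the 2 groups were separate, as they were for 15.2% of all genes in this direction. The members' median change was 0, beside -0.001 over all genes.

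The standard error in that fit includes the spread of the KO group, in which replicate 1 lies far from the others. Without KO replicate 1 the group means of NHD13 and WT are the same, and 2 of 5 genes passed, 1 up and 1 down, where 28.6% of all genes passed (14.1% higher and 14.5% lower). Bcl11a fell by 2.69 ± 0.39 on the log2 scale, or 6.45-fold, with an adjusted p of 0.000707 in limma, and its second probe fell by 2.25 ± 0.30 (adjusted p = 0.000374 in limma). The call on Bcl11a held when any one of the 11 remaining arrays was also left out (adjusted p of 0.000463 to 0.00586 in limma). Spi1 rose by 1.48 ± 0.39, or 2.79-fold (adjusted p = 0.0164 in limma), at 6.91 ± 1.02 in NHD13 (n = 3) and 5.43 ± 0.45 in WT (n = 6). That call was lost without NHD13 replicate 2 (1.09, adjusted p = 0.0908 in limma) or without NHD13 replicate 3 (1.30, adjusted p = 0.0793 in limma), and with a block for array class (WT replicates 1 to 3 and KO against WT replicates 4 to 6 and NHD13; 1.34, adjusted p = 0.0549 in limma).

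The other 3 genes did not pass in either fit. Mef2c averaged 6.10 ± 1.05 in NHD13 and 7.78 ± 0.93 in WT (SD, n = 3 and 6), a log2 change of -1.67 ± 0.65 with an adjusted p of 0.0816 in limma when KO replicate 1 was left out. Against WT replicates 1 to 3 alone it was -2.44 (adjusted p = 0.0299 in limma), and against WT replicates 4 to 6, which share the Xist level of the NHD13 arrays, it was -0.91 (adjusted p = 0.365 in limma). Bcl11a passed against both sets of 3 WT arrays, with changes of -3.22 (adjusted p = 0.000923 in limma) and -2.16 (adjusted p = 0.00654 in limma). Spi1 passed against replicates 1 to 3 (1.62, adjusted p = 0.0383 in limma) and not against 4 to 6 (1.34, adjusted p = 0.0713 in limma). Cd44 averaged 9.95 ± 0.68 in NHD13 and 9.59 ± 0.18 in WT (adjusted p = 0.334 in limma without KO replicate 1). Its second probe differed by 0.78 ± 0.27 (adjusted p = 0.0541 in limma), and all NHD13 arrays exceeded all WT arrays there, as for 14.8% of all genes. Cd34 had the same mean, 5.34, in both groups.

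The knockout group was then compared with NHD13, which addresses the effect of losing Lyl1 when the transgene is present. With all 12 arrays 0 of 5 genes passed limma's test, 1 (Mef2c) had an unadjusted p under 0.05, and 22.2% of all genes passed (13% higher and 9.22% lower). Mef2c averaged 8.48 ± 2.30 in KO and 6.10 ± 1.05 in NHD13 (SD, n = 3 each), a log2 change of 2.38 ± 0.98 (SE) with an adjusted p of 0.106 in limma. The other changes were 1.60 for Bcl11a, 1.53 for Cd34, -0.64 for Spi1 and -0.40 for Cd44, each smaller than the SD of the KO group, which reached 3.04 for Bcl11a. The median of the 5 changes was 1.53, beside 0.064 over all genes.

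With KO replicates 2 and 3 alone, 2 of 5 genes passed and both were lower, where 21.6% of all genes passed (12.6% higher and 9% lower). Spi1 averaged 4.71 ± 0.02 in KO (n = 2, not detected) and 6.91 ± 1.02 in NHD13 (n = 3). It fell by 2.21 ± 0.50 (adjusted p = 0.0111 in limma), and since the KO value is background, Spi1 was at least 2.89-fold lower. Cd44 averaged 8.85 ± 0.27 in KO and 9.95 ± 0.68 in NHD13, and it fell by 1.09 ± 0.33, or 2.14-fold (adjusted p = 0.037 in limma). All KO values lay below all NHD13 values for both genes, as for 23.4% of all genes. Spi1 kept its call in 9 of 11 fits with one further array left out and lost it without KO replicate 2 (adjusted p = 0.0744 in limma) or 3 (adjusted p = 0.061 in limma), where 1 KO array remained. Cd44 kept its call in 6 of 11, with adjusted p of 0.00145 to 0.231 in limma, and lost it without NHD13 replicate 2 or 3, KO replicate 2 or 3, or WT replicate 5. Cd44 also lost it when the fit held only WT replicates 1 to 3 (adjusted p = 0.0712 in limma) or 4 to 6 (adjusted p = 0.0579 in limma). With a block for array class neither gene passed, at -1.93 for Spi1 (adjusted p = 0.0733 in limma) and -1.23 for Cd44 (adjusted p = 0.0769 in limma). The KO and NHD13 arrays lie in different classes, so the block adjusts their difference only by the shift between the 2 sets of WT arrays. Losing the call there does not show an effect of class. The second Cd44 probe changed by -1.05 (adjusted p = 0.0535 in limma).

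Bcl11a did not differ detectably between the groups in that fit, at 5.51 ± 0.35 in KO and 5.65 ± 0.70 in NHD13 (adjusted p = 0.876 in limma), both near background. Mef2c averaged 7.33 ± 1.63 in KO and 6.10 ± 1.05 in NHD13 (adjusted p = 0.34 in limma). Cd34 averaged 5.34 in both groups.

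The last comparison, of the knockout group with wild type, asks how far cells with both alleles differ from normal DN thymocytes. Again 0 of 5 genes passed limma's test with all 12 arrays, none had an unadjusted p under 0.05, and 8.3% of all genes passed (4.49% higher and 3.81% lower). The log2 changes were -1.08 for Bcl11a, 0.84 for Spi1, 0.70 for Mef2c, -0.05 for Cd44 and 1.53 for Cd34, with a median of 0.70, beside 0.084 over all genes. Without KO replicate 1, Bcl11a passed, where 5.33% of all genes passed (3.06% higher and 2.28% lower). It averaged 5.51 ± 0.35 in KO (n = 2) and 8.34 ± 0.65 in WT (n = 6) and fell by 2.83 ± 0.45, or 7.13-fold (adjusted p = 0.00572 in limma). By its second probe, which neither KO array detected, Bcl11a was at least 3.79-fold lower (adjusted p = 0.00302 in limma). The call held against WT replicates 1 to 3 alone (-3.37, adjusted p = 0.00404 in limma) and 4 to 6 alone (-2.30, adjusted p = 0.0206 in limma), and it was lost in 1 of 11 further fits, without KO replicate 2 (-2.58, adjusted p = 0.0651 in limma).

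Cd44 averaged 8.85 ± 0.27 in KO replicates 2 and 3 and 9.59 ± 0.18 in WT, a log2 change of -0.74 ± 0.29 that missed the threshold (adjusted p = 0.178 in limma). Both KO values were below all WT values for Bcl11a, Spi1 and Cd44, as they were for 10.1% of all genes in this direction. For Spi1 the nearest values were 4.72 in KO and 4.76 in WT, both undetected, and the lower bound was 1.04-fold. By the second Cd44 probe KO replicate 3 (8.26) lay within the WT range (7.62 to 8.32). The changes of Spi1 (-0.73), Mef2c (-0.45) and Cd34 (0.01) did not pass. For Bcl11a, KO replicates 2 and 3 were low like the NHD13 arrays, and for Spi1 and Cd44 they were lower than the NHD13 arrays. The 3 comparisons share arrays, so their values are set side by side and not counted as independent.

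**Figure D3:**
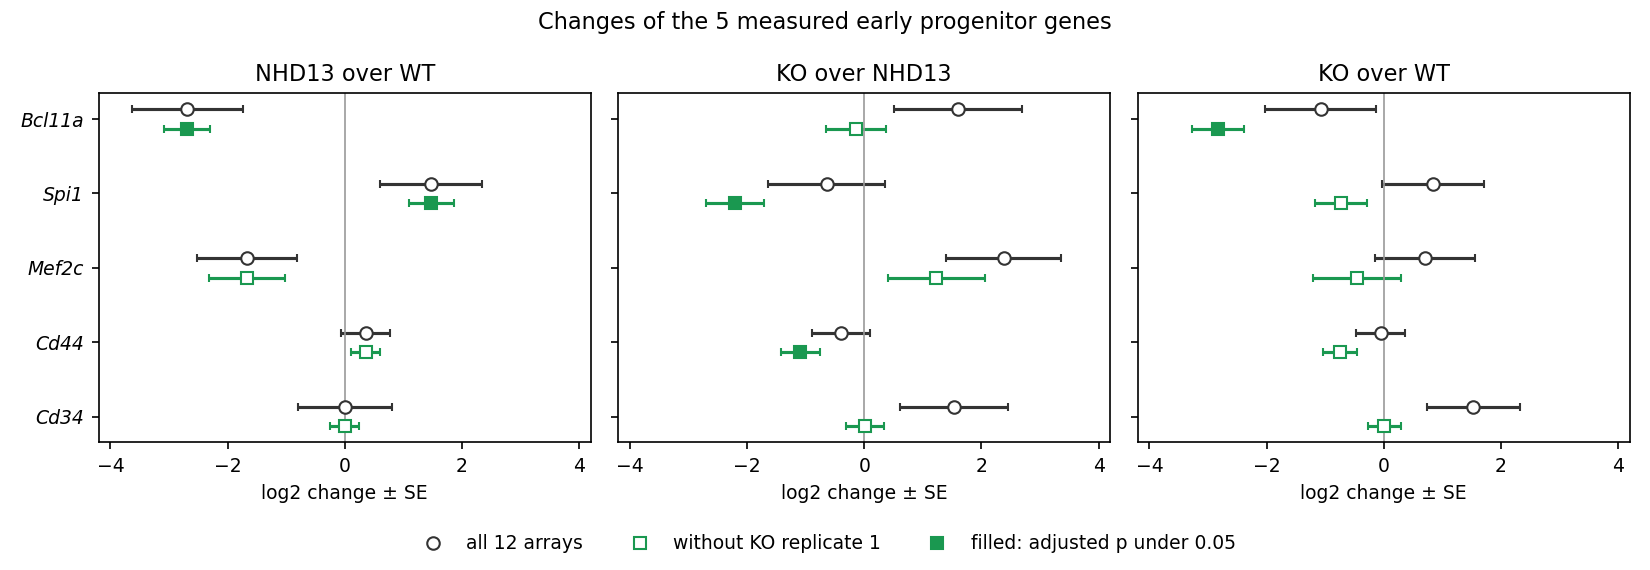
Log2 change ± SE of the 5 measured genes in the 3 comparisons, with all 12 arrays (black circles) and without KO replicate 1 (green squares), filled where the adjusted p is under 0.05. No black circle is filled, and the filled squares are Bcl11a and Spi1 in NHD13 over WT (-2.69 and 1.48), Spi1 and Cd44 in KO over NHD13 (-2.21 and -1.09) and Bcl11a in KO over WT (-2.83).

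KO replicate 1 had the highest signal of all 12 arrays for each of the 5 measured genes. The share of all genes highest on that array was not counted, so this is not read as particular to the 5. KO replicate 1 exceeded the mean of KO replicates 2 and 3 by 3.44 log2 units (10.8-fold) for Mef2c and 2.07 (4.2-fold) for Cd44, which both of those arrays detected. For Bcl11a (5.25 log2 units) and Cd34 (4.57), 1 of the 2 arrays detected the probe, so these differences are partly against background. Spi1 was detected on 0 of the 2 and was at least 16.3-fold higher on KO replicate 1. Of all 10497 genes, 8.75% were over 1 log2 unit higher and 7.73% over 1 unit lower on that array. The share with a larger excess was 0.314% for Bcl11a, 0.495% for Spi1, 1.34% for Mef2c, 3.39% for Cd44 and 0.553% for Cd34. With 1 such array there is no replicate, and these differences have no test.

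Markers of other cell types also differed between arrays, only in part as these genes did. The 13 measured myeloid markers had a mean log2 signal of 11.40, 5.15 and 4.93 in KO, 6.93, 9.71 and 6.03 in NHD13 and 6.13 to 8.21 in WT. Within WT the mean was 6.13 to 6.88 on replicates 1 to 3 and 7.04 to 8.21 on replicates 4 to 6. Bcl11a and Mef2c were higher on WT replicates 1 to 3, unlike this mean, but single markers differed. Lyz2 was at 10.25 to 10.77 on WT replicates 1 to 3 and 8.41 to 10.11 on replicates 4 to 6. Csf1r was at 6.13 to 7.04 and 5.04 to 6.00 in those sets, also higher on replicates 1 to 3. Ctsg, S100a8, S100a9, Ngp, Ltf, Camp and Cebpe were higher on all of replicates 4 to 6, and Mpo, Elane, Prtn3 and Csf3r overlapped. Of the 13 markers, 8 were highest on KO replicate 1 and 5 on an NHD13 array, with no share over all genes counted. On KO replicate 1 all 13 were detected and their summed signal was 74730, against 531.4 and 450.1 on replicates 2 and 3, 1760 to 42680 in NHD13 and 2698 to 15480 in WT. Mpo, the peroxidase of granulocyte precursors, was at 14.28, 5.27 and 4.64 in KO, 7.31, 9.57 and 9.82 in NHD13 and 7.69 to 8.55 in WT. The 8 measured genes of the DN thymocyte gate averaged 9.31, 10.78 and 10.94 in KO, 10.33 to 10.59 in NHD13 and 10.73 to 11.04 in WT, so KO replicate 1 was the lowest array there. In the sort's own terms, the Cd8a probe was detected on 0 arrays and Cd4 on 4, while a Cd8b1 probe was detected on all 12. NHD13 replicate 2, the highest NHD13 array for Bcl11a, Spi1, Mef2c and Cd44, was also the highest NHD13 array for the myeloid markers. NHD13 replicate 3 was the lowest NHD13 array for those markers, with Spi1 at 7.27 and Cd44 at 10.24, both above all WT arrays. The part that other cells play in the levels of these genes was not tested.

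Within the WT group, the mean signal of 2 lists of antigen-presenting cell markers split as Mef2c did, though not every marker followed. Vpreb1 was at 6.45 to 6.63 on WT replicates 1 to 3 and 6.66 to 6.95 on replicates 4 to 6. Bst2 was at 8.53 to 9.40 and 9.01 to 10.11 in those sets, and Ly6d, Siglech and Ebf1 also overlapped between them. The 8 measured dendritic cell markers averaged 10.69 to 10.91 on WT replicates 1 to 3 and 9.77 to 10.12 on replicates 4 to 6, against 9.21 to 9.40 in KO and 9.60 to 10.36 in NHD13, and the 6 measured B-cell markers averaged 7.09 to 7.48 and 6.32 to 6.50 in those 2 sets of WT arrays, against 6.09 to 6.89 in KO and 6.43 to 7.09 in NHD13. Bcl11a (8.87 ± 0.25 on replicates 1 to 3 and 7.81 ± 0.36 on replicates 4 to 6) and Mef2c were higher in the same set. Both genes are also expressed in B cells and dendritic cells, and the part of those cells was not tested. Of the B-cell list, Cd79b was detected on 12 arrays, Vpreb1 on 12, Cd22 on 9, Ebf1 on 6, Ms4a1 and Blnk on 5 each, Igll1 on 2 and Pax5 on 1. Of the dendritic list, H2-Aa, H2-Ab1, Cd74, Bst2, Irf8, Tcf4 and Ly6d were detected on 12 arrays, Siglech on 11, Clec9a and Xcr1 on 2 each, and Itgax and Flt3 on 0.

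**Figure D4:**
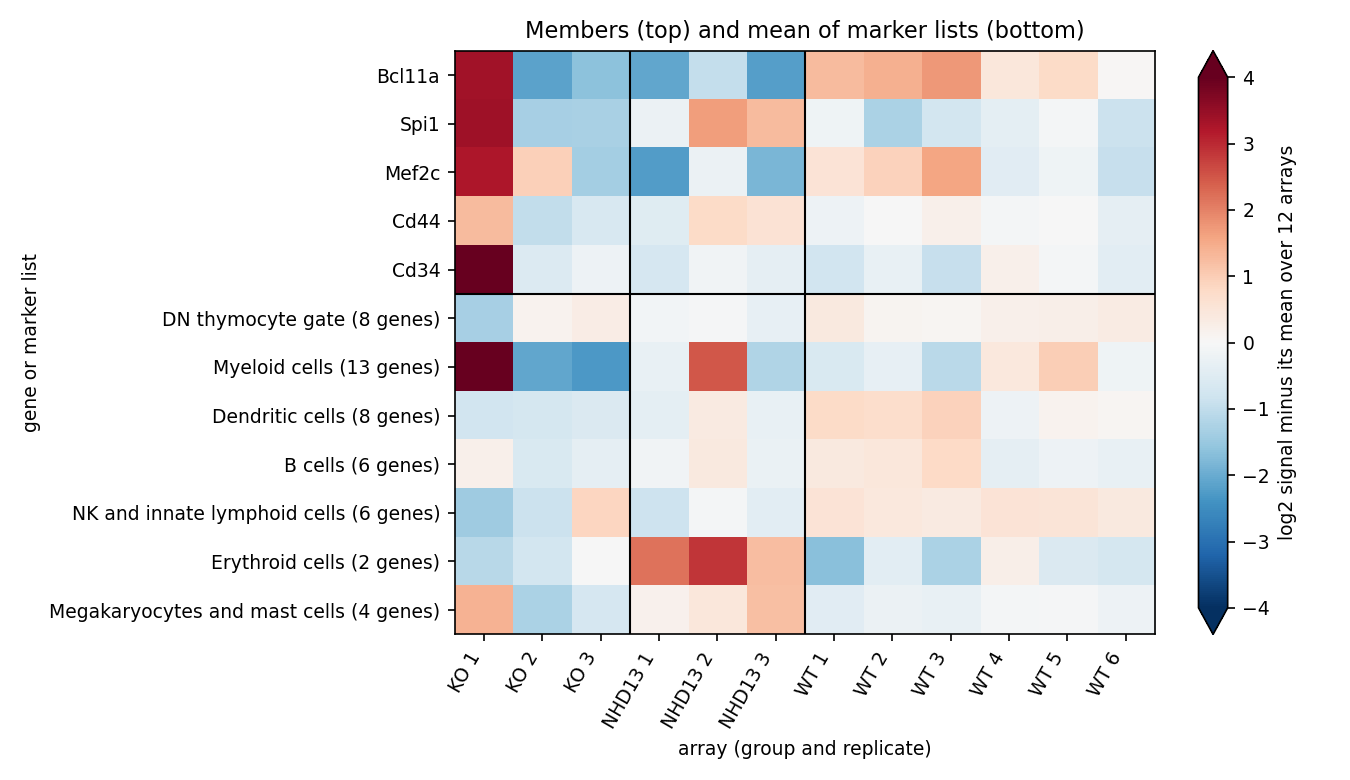
Log2 signal of the 5 measured genes (top) and the mean log2 signal of 7 marker lists (bottom) on each array, each row minus its mean over 12 arrays. KO replicate 1 is highest for the 5 genes and for the myeloid list (11.40) and lowest for the DN thymocyte gate (9.31). Colours beyond 4 units are drawn at the end of the scale.

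The 5 genes did not share one pattern. With each gene centred on its own mean over the 12 arrays, the root-mean-square difference was smallest between Spi1 and Cd44 (0.88 log2 units) and largest between Bcl11a and Spi1 (1.84), and Bcl11a and Mef2c differed by 1.07. When KO replicate 1 was left out, the closest pair was Cd44 and Cd34 (0.52, against 1.02 over 12 arrays), ahead of Spi1 and Cd44 (0.62), and Bcl11a and Spi1 were still farthest apart (1.92). By the same measure over 10492 other genes, Mpeg1, which encodes a macrophage pore-forming protein, was closest to Bcl11a (0.57), ahead of the cathepsin gene Ctsh (0.67) and Aldh3b1 (0.72). Mlkl (0.37), Ifitm2 (0.51) and Rab31 (0.52) were closest to Spi1. For Mef2c they were Aldh3b1 (0.65), Irf5 (0.79) and P2ry6 (0.79). Prr33, Cd180 and Snx14 were closest to Cd44 (0.25 each), whose own SD over the arrays was 0.63. Nkx2-3 (0.29), Adam15 (0.33) and Tgm2 (0.36) were closest to Cd34. KO replicate 1 weighs heavily here: without it, 3 of these 15 pairings stayed among the 3 closest, which were Ctsh (rank 2) and Mpeg1 (3) with Bcl11a and Mlkl (3) with Spi1. Aldh3b1 ranked 14 for Bcl11a, and Ifitm2 and Rab31 ranked 15 and 126 for Spi1. For Mef2c the ranks were 4, 51 and 67, for Cd44 28, 26 and 17, and for Cd34 445, 1242 and 2060, in the order named.

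Relatives of the 7 genes in the same families were read from the same arrays. Of 12 symbols listed for relatives 9 were measured, and in NHD13 over WT 0 rose and 3 fell. These were Myc, a transcription factor gene of the same family as Mycn (-2.15 ± 0.30, adjusted p = 0.000759 in limma), Ets2 (-1.81 ± 0.32, adjusted p = 0.00276 in limma) and Spib, the PU.1 relative of plasmacytoid dendritic cells and B cells (-0.82 ± 0.27, adjusted p = 0.0483 in limma). Myc had a log2 signal of 7.80, 8.29 and 8.20 in KO, 7.09, 7.44 and 6.04 in NHD13 and 8.55 to 9.39 in WT. All NHD13 arrays lay below all WT arrays, as for 15.2% of all genes, and the KO arrays lay between them. The share of genes with all 3 groups apart was not counted. In KO over NHD13, Ets2 (1.55 ± 0.37, adjusted p = 0.0127 in limma) and Myc (1.24 ± 0.35, adjusted p = 0.0248 in limma) rose and 0 fell, and both passed without KO replicate 1 as well. In KO over WT, Spib (-1.20) and Bcl11b (-1.32) fell with adjusted p of 0.0184 and 0.0441 in limma, and neither passed without KO replicate 1 (adjusted p = 0.0562 and 0.0983 in limma). Bcl11b, the T-lineage counterpart of Bcl11a, was at 10.69, 13.08 and 12.19 in KO, 12.93 to 13.09 in NHD13 and 13.17 to 13.44 in WT. In NHD13 over WT the relatives Fli1 (0.11), Ets1 (-0.01), Mef2b (-0.08), Mef2d (0.68), Mycl (-0.64) and Bcl11b did not pass. Their median over the 9 was -0.30, -0.25 and -0.43 in the 3 comparisons, in the order given above, beside -0.001, 0.064 and 0.084 over all genes. Of all genes, 11.6%, 13% and 4.49% rose and 12.6%, 9.22% and 3.81% fell over 12 arrays, in that order.

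In NHD13 many of the other genes of early progenitors were high, where Bcl11a was low. Of 18 such genes 15 were measured, and over WT 10 rose and 0 fell, with a median of 2.76 over the 15. Lyl1 itself (3.96), Kit, the stem cell factor receptor (2.76), Hhex, a homeobox factor (3.66), and Cd93, a surface protein of progenitors (2.87), had the smallest adjusted p, at most 0.00174 in limma. In KO over NHD13, 0 rose and 5 fell. Of these, 1 was Lyl1 itself, the gene removed in the knockout, so its fall was set by the design. Hhex (-2.57 ± 0.64, adjusted p = 0.0155 in limma) and Nfe2, a megakaryocyte and erythroid factor (-3.71 ± 0.94, adjusted p = 0.017 in limma), were among the others. Without KO replicate 1, 7 fell, again counting Lyl1, and Lmo2, the LIM-domain partner of Lyl1, was among them. Lmo2 was at 12.60, 6.21 and 6.37 in KO, 10.75, 11.69 and 11.87 in NHD13 and 6.91 to 8.73 in WT. In KO over WT 3 rose and 1 (Lyl1) fell, with Hoxa9, a homeobox gene of progenitors, higher by 3.30 ± 0.53 (adjusted p = 0.00406 in limma). When KO replicate 1 was left out, 2 rose (Hoxa9 and Gfi1b) and 2 fell, Lyl1 and Nfe2 (-1.78, adjusted p = 0.00268 in limma), and Kit no longer passed (adjusted p = 0.194 in limma). Of the 15 genes, 4 (Lmo2, Tal1, Meis1 and Gfi1b) were highest on KO replicate 1, 1 on another KO array, 9 on an NHD13 array and 1 on a WT array. The shares of all genes highest on these arrays were not counted. Beside these counts, 11.6%, 13% and 4.49% of all genes rose in the 3 comparisons over all arrays, and 12.6%, 9.22% and 3.81% fell.

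**Figure D5:**
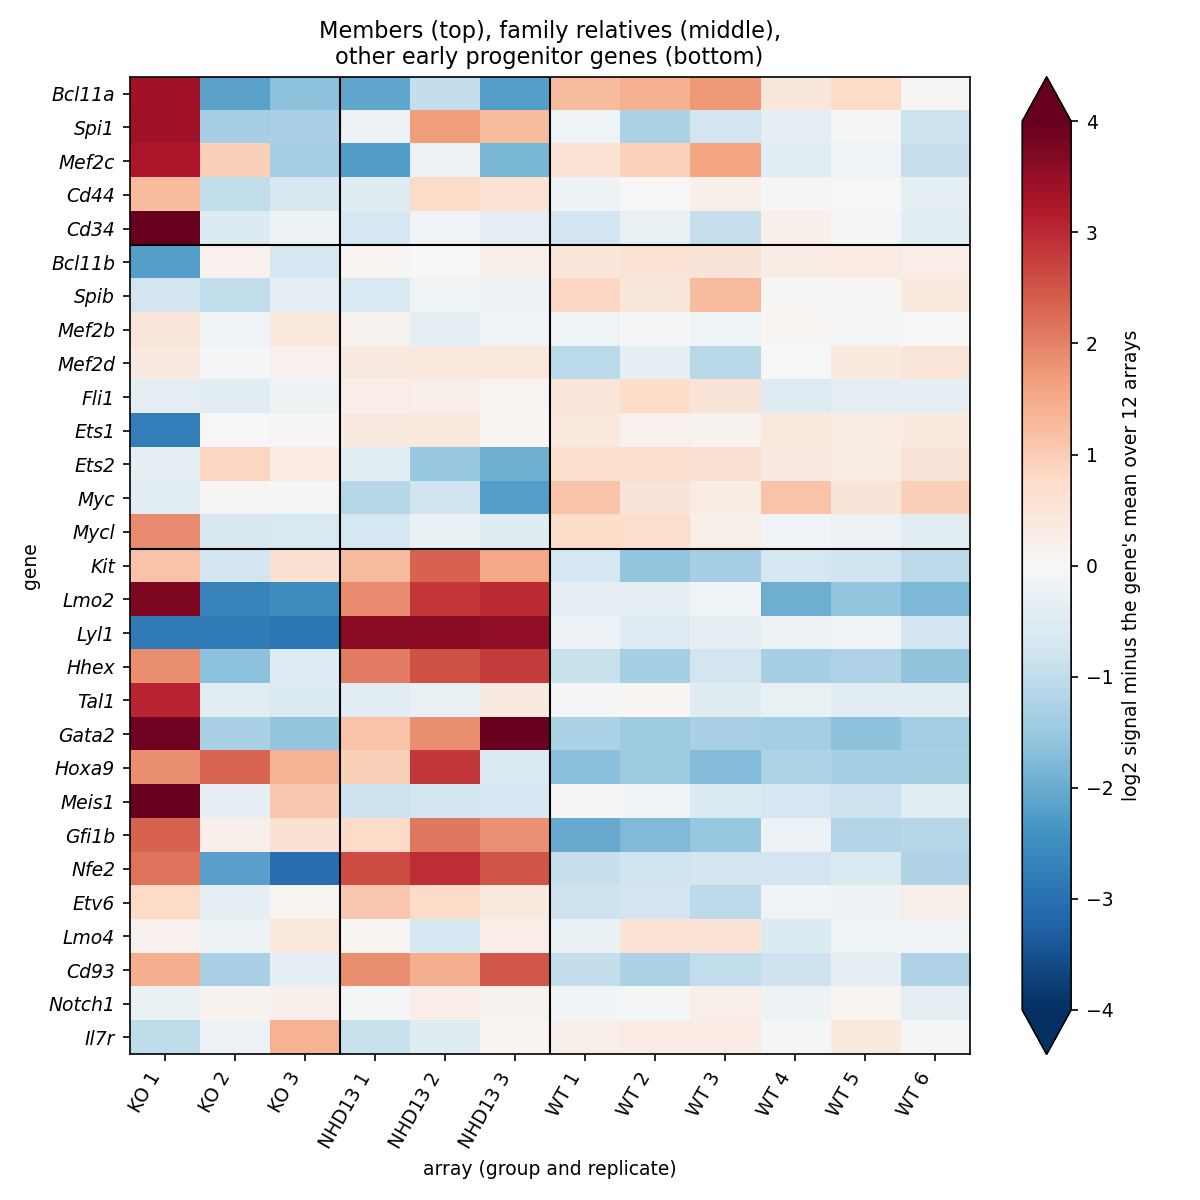
Log2 signal of the 5 measured genes (top), 9 family relatives (middle) and 15 other early progenitor genes (bottom) on each array, each row minus its mean over 12 arrays. Most rows of the bottom block are red in NHD13 and pale or blue in WT, while Bcl11a is blue in NHD13 and red on most WT arrays. Colours beyond 4 units are drawn at the end of the scale.

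Genes of T commitment included several that were low in NHD13. Of 16 measured, 1 rose in NHD13 over WT (Dtx1, a Notch target, 1.86) and 4 fell: Rag1, a recombinase gene (-4.94 ± 0.65, adjusted p = 0.000546 in limma), Ptcra, the pre-T-cell receptor chain (-3.39 ± 0.61, adjusted p = 0.00306 in limma), Lef1 and Rag2, and the fit without KO replicate 1 gave 2 up and 5 down. In KO over NHD13, Rag1 (4.44 ± 0.75, adjusted p = 0.0025 in limma) and Ptcra (3.20 ± 0.71, adjusted p = 0.00906 in limma) rose and Hes1 fell, and without KO replicate 1 it was 5 up and 0 down. Rag1 had a log2 signal of 8.22, 11.49 and 12.13 in KO, 6.68, 6.48 and 5.38 in NHD13 and 10.87 to 11.31 in WT. In KO over WT 0 rose and 1 (Bcl11b) fell, and without KO replicate 1 it was 2 up (Dtx1 and Ptcra) and 0 down. Across all genes and arrays, 11.6%, 13% and 4.49% rose and 12.6%, 9.22% and 3.81% fell in the 3 comparisons.

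Genes that PU.1 is known to drive in myeloid cells were set beside Spi1. Of 8 measured, 0 passed limma's test in any of the 3 comparisons over all 12 arrays, and 3, 2 and 1 had an unadjusted p under 0.05. Without KO replicate 1, 2 rose and 1 fell in NHD13 over WT: Btk, a kinase gene (2.12 ± 0.34, adjusted p = 0.00137 in limma), and Ncf1, a subunit of the phagocyte oxidase (1.96 ± 0.27, adjusted p = 0.00048 in limma), rose, and Csf2ra fell by 1.33. Both Btk (-4.21 ± 0.45, adjusted p = 0.000169 in limma) and Ncf1 (-2.55 ± 0.35, adjusted p = 0.000743 in limma) fell in KO over NHD13 in that fit, and Btk fell in KO over WT (-2.09). Btk was at 11.47, 6.16 and 6.01 in KO, 9.43, 10.97 and 10.48 in NHD13 and 7.58 to 8.75 in WT. Like Spi1 it was highest on KO replicate 1 and lowest on KO replicates 2 and 3. All 3 NHD13 arrays were above WT for Btk, but only replicates 2 and 3 for Spi1. The list as a whole did not rise in NHD13 over WT, with a median of -0.22 beside -0.001 over all genes. All 8 measured genes were highest on KO replicate 1. The share of all genes highest on that array was not counted, so this is not read as particular to the list. Csf1r and Csf3r are also in the myeloid list, which was high on that array. Without that array, 14.1% of all genes rose and 14.5% fell in NHD13 over WT.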

How the data were processed

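Gene expression was measured in DN thymocytes on 12 Illumina MouseWG-6 v2.0 arrays (3 KO, 3 NHD13, 6 WT), grouped by the labels' titles. Per the submitters' processing notes, BeadStudio and limma were used, with no role or version given. The deposited values are bead-summarised intensities of 45281 probes, with a deposited detection p-value beside each, per the file headers. The authors also deposited a log2 table, which correlated at 0.9998 with the values made here and served as an alternative, although how it was made is not given in the sources used.

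For normalization, neqc (limma 3.58.1, R 4.3.3) modelled the background from the detection p-values, added an offset of 16, quantile-normalized the arrays and took log2. The 20416 probes detected (p under 0.05) on 3 or more arrays were tested, and the brightest of them stood for its gene. Names came from the platform annotation, which gave 34885 probes 1 symbol, 18 several and 10378 none. All 12 arrays were fitted with a mean per group (lmFit, eBayes), and 3 contrasts were tested with Benjamini-Hochberg adjustment over those probes. Where no array of a group detected a probe, a fold is a lower bound against the lowest detected signal of each array. The number of arrays limits the precision. The fit was tested on simulated data.

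The 7 genes and the 12 lists of other genes were chosen with earlier results of these data known. All 7 genes and their family relatives are named, with the 3 genes closest to each measured gene and, per list and comparison, at most 4 called genes with the smallest adjusted p. Mpo, Lmo2, Tal1, Meis1, Gfi1b, Ly6d, Irf8, Xist and Eif2s3y are named outside these rules, chosen after their values were seen. So are the other single myeloid markers and the B-cell and dendritic markers whose detection is given. The symbols Mef2a, Mycl1, Runx2 and Zfpm1 are not analysed here.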

Additional observations from a re-analysis of the deposited data

How the results depend on the processing

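No call on the 5 measured genes was made by the unweighted fit of all 12 arrays. The counts of genes called in NHD13 over WT, KO over NHD13 and KO over WT were 0, 0 and 0 in that fit and 2, 2 and 1 without that array. Array weights, which gave it the lowest weight (0.299), also called 2, 2 and 1 over the 12 arrays, and a fit of NHD13 and WT alone called 2. Further alternatives with KO replicate 1 left out were chosen after seeing the data, and their counts were 3, 1 and 1 against WT replicates 1 to 3, 1, 1 and 1 against WT replicates 4 to 6, and 1, 0 and 1 with a block for array class (WT replicates 1 to 3 and KO, against WT replicates 4 to 6 and NHD13, a split taken from earlier results). The signal of probes detected on no array did not place the KO arrays in either class here (mean r of -0.08 to -0.063 with their own class and -0.088 to -0.073 with the other). Leaving out 1 array, or KO replicate 1 and 1 more, gave counts of 0 to 3, 0 to 2 and 0 to 2. Without KO replicate 2, Bcl11a passed in NHD13 over WT (adjusted p = 0.0448 in limma), and without KO replicate 3, Mef2c passed in KO over NHD13 (3.53, adjusted p = 0.0175 in limma). No background correction, the stricter and absent detection filters, median scaling and the deposited log2 table left all counts at 0. Median scaling moved the median change of all genes to 0.284, 0.007 and 0.333.

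The reversed values passed no test themselves, but some of the same changes passed in other fits. In KO over NHD13, Spi1 (-2.21) and Cd44 (-1.09) passed without KO replicate 1, and Mef2c (3.53) without KO replicate 3. Spi1 was 0.15 without KO replicate 2, and Cd44 reached 0.04 when 1 array was left out. Mef2c turned negative in a fit given below. The direction of these 3 changes therefore depended on the arrays used. In KO over WT, Cd44 was 0.30 with median scaling, 0.02 against WT replicates 4 to 6 and 0.34, 0.05 and 0.51 by its other probes. Spi1 was -0.38 with array weights and, without KO replicate 1, -0.59 against WT replicates 1 to 3 and with the class block and -0.87 against WT replicates 4 to 6. Mef2c was -0.06 against WT replicates 1 to 3 and with the class block, -0.13 and -0.06 by 2 other probes, and -1.21 against WT replicates 1 to 3 or with the class block without KO replicate 1, and Cd34 was then -0.28 against WT replicates 4 to 6. In KO over NHD13 without KO replicate 1, Bcl11a was -0.14 with either set of WT arrays and -1.21 with the class block, and Mef2c was -0.30 with the class block. Cd44 was 0.14 and 0.39 by 2 dim probes. In NHD13 over WT, Cd34 was 0 in the deposited table, -0.07 with array weights and -0.28 against WT replicates 4 to 6 or with the class block, and Cd44 was -0.09 by a dim probe. Leaving arrays out gave, in NHD13 over WT, -3.09 to -2.45 for Bcl11a, 1.09 to 2.05 for Spi1, -2.27 to -1.27 for Mef2c, 0.12 to 0.75 for Cd44 and -0.12 to 0.14 for Cd34. In KO over NHD13 it gave -0.39 to 2.60, -2.78 to 0.15, 0.07 to 3.53, -1.48 to 0.04 and -0.17 to 2.38 for the genes in that order, and in KO over WT -3.08 to -0.09, -0.86 to 1.63, -1.60 to 1.85, -0.92 to 0.39 and -0.17 to 2.38. A replicate block over replicates 1 to 3 left the counts at 0 and gave -0.06 for Mef2c in KO over WT. Deviations of same-numbered arrays from their group means correlated at r of -0.149 to 0.167. Such weak values cannot settle whether the numbers pair samples, which the labels do not state. The cause of these shifts was not tested. Signal near background limits Bcl11a, Spi1 and Cd34 most.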

Other observations

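Dendritic cell and mast cell genes gave further differences between the groups, outside the progenitor genes. Siglech, a lectin of plasmacytoid dendritic cells, had a log2 signal of 4.89, 5.98 and 5.52 in KO, 6.85, 7.54 and 7.96 in NHD13 and 7.70 to 8.58 in WT. It fell in KO over NHD13 (-1.99 ± 0.35, adjusted p = 0.00286 in limma) and in KO over WT (-2.66 ± 0.30, adjusted p = 0.000687 in limma), and it passed in both without KO replicate 1. Cpa3, a mast cell protease gene also expressed in progenitors, was at 11.38, 6.55 and 7.82 in KO, 12.30, 12.92 and 14.05 in NHD13 and 9.99 to 10.97 in WT. It rose in NHD13 over WT (2.48 ± 0.79, adjusted p = 0.0437 in limma) and fell in KO over NHD13 (-4.51 ± 0.91, adjusted p = 0.00606 in limma). Hba-a1, an alpha-globin gene, rose in NHD13 over WT (5.24 ± 0.78, adjusted p = 0.00104 in limma) and fell in KO over NHD13 (-5.70 ± 0.90, adjusted p = 0.00175 in limma). Pecam1, an adhesion molecule of endothelium and of immature blood cells, rose by 1.02 ± 0.15 in NHD13 over WT (adjusted p = 0.001 in limma). By list, in NHD13 over WT 1 of 6 measured NK and innate lymphoid genes rose and 3 fell, and 1 of 2 erythroid, 1 of 4 megakaryocyte and mast cell, 1 of 8 dendritic cell and 1 of 3 endothelial and stromal genes rose with 0 falling. Over all genes, 11.6% rose and 12.6% fell in that comparison, so 1 gene in a short list says little about the list. The dendritic count without KO replicate 1 was 1 up and 2 down (Ly6d, adjusted p = 0.00312, and Irf8, adjusted p = 0.0466 in limma), and the counts of the other 4 lists were the same. Of the DN thymocyte gate, 1 of 8 rose and 1 fell. In KO over NHD13, 1 NK and innate lymphoid gene rose and 1 fell, 2 dendritic genes fell, and 1 gene fell in each of the B-cell, erythroid, mast cell and endothelial lists. There, 13% of all genes rose and 9.22% fell. With KO replicate 1 left out, the dendritic count was 1 up (Ly6d) and 1 down (Siglech), and the counts of the other lists named were the same. Of the 13 myeloid genes, 0 passed limma's test in any of the 3 comparisons with all 12 arrays and 0 had an unadjusted p under 0.05. Without KO replicate 1, 1 rose in NHD13 over WT, 4 fell in KO over NHD13 and 3 fell in KO over WT. Of all genes, 14.1%, 9% and 2.28% passed in those directions.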
